A study of Mus musculus with 4 samples.

Results

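The RXR, LXR, PPAR and COUP receptors are nuclear receptors, transcription factors of the ligand-responsive kind, and their transcripts were examined here in mouse ventricle with and without the related orphan receptor ERRα, the product of Esrra. The members were named as 10 genes: Rxra, Rxrb, Rxrg, Nr1h2, Nr1h3, Nr0b2, Nr2f1, Nr2f2, Ppara and Ppard. Every probe set annotated to exactly 1 gene of that list was taken, which gave 11 of the 12488 probe sets of the array and covered 9 of the 10 genes. No such probe set was annotated to Nr1h2, which encodes LXRβ, and it is not analysed here.

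Total RNA came from the ventricles of ERRα knockout mice and of ERRα wild-type mice, all at baseline, and was measured on 4 one-colour Affymetrix arrays, 2 per genotype. The labels give no age, sex, strain or pooling, and do not say how the allele was made or whether the samples 1 and 2 of a genotype came from separate animals, so p-values reflect the spread among these arrays alone, and that spread may be technical. With 2 arrays against 2, the smallest two-sided p of an exact permutation test is 0.333, so the number of arrays limits the precision throughout. The knockout was visible in the arrays: the stronger Esrra probe set gave 922 and 1050 in knockout, against 8598 and 8039 in wild type. Where the Esrra probe sets lie relative to the altered part of the gene is not stated. All 6 cardiomyocyte markers on the array, among them the myosin Myh6 and the troponins Tnnt2 and Tnni3, passed the filter on low signal described next. Their summed signal was 574879 and 656880 in knockout, against 706521 and 673581 in wild type, with 5 of the 6 lower in knockout.

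RXRs bind DNA as obligate partners of many other nuclear receptors, PPARs and LXRs among them, and are activated by retinoids. LXRs are oxysterol sensors that switch on cholesterol efflux and lipid synthesis, and they are active in macrophages, liver and fat. PPARs are fatty acid sensors that drive fatty acid oxidation in heart muscle. COUP transcription factors are orphan receptors, of which COUP-TFII marks veins, atria and stromal cells, and they bind many of the same DNA repeats of the core AGGTCA as the other members. Nr0b2, the small heterodimer partner SHP, has no DNA-binding domain and represses other nuclear receptors.

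Because ERRα and these receptors read related elements, the promoter windows of the members were searched, and the ones shown are those of the member with the largest difference between genotypes and of the genes that held the core. The 10 genes had 15 windows in the RefSeq table (build GRCm38.p6), each running from 250 bases before a start to 50 after it. Both strands were searched for the ERR element TNAAGGTCA, for its inner core AGGTCA alone, for the core repeated in the same orientation with any 1 base between the copies (DR1, read by PPAR with RXR and by COUP factors) and for the same repeat with any 4 bases between (DR4, read by LXR with RXR). The core lies within each of the other 3 motifs, so a match of those also counts for it. The core was found in 2 of the 15 windows, against 16.3% of all 32851 windows. The ERR element was found in 0 of 15, against 1.28% of all windows, DR1 in 0, against 0.0396%, and DR4 in 0, against 0.0152%. A match is a description of these letters and says nothing about binding. The 250 bases before each start are printed 5′ to 3′ on the gene's strand, and capitals mark the core in either orientation.
Nr1h3, chr2:91195117-91195366, minus strand: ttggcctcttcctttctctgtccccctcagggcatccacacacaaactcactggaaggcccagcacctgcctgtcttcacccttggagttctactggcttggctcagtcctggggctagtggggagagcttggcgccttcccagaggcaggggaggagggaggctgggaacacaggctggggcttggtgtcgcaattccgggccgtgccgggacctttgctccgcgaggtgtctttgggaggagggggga
Rxra, its downstream start, chr2:27709042-27709291, plus strand: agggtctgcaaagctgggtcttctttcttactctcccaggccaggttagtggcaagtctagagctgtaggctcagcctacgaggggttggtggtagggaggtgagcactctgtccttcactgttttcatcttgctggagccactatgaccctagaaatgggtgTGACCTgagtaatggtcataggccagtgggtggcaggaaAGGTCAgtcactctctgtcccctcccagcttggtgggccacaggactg
Rxrg, its downstream start, chr1:167618015-167618264, plus strand: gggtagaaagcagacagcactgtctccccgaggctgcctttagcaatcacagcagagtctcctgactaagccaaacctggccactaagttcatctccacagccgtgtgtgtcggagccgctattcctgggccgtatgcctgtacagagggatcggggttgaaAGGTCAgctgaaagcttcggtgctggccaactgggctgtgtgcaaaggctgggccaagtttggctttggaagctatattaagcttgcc
In Rxra the core began 48 bases before the start on the gene's strand and 87 bases before it on the opposite strand, and in Rxrg it began 88 bases before the start. The Nr1h3 window held none of the 4 motifs.

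The values are deposited signals, linear and scaled by array. Probe sets with a mean over the 4 arrays below 351, the 40th percentile, were left out of the fit, signals below 110 were set to that floor, and differences are knockout minus wild type on the log2 scale. Of the 11 member probe sets, 8 passed that filter, for 7 genes, and the 3 that did not belong to Nr2f1, Ppard and Nr2f2. None of the 8 passed limma's test over all 7453 probe sets tested (adjusted p 0.744 to 0.987, Benjamini-Hochberg), where 0.0134% of probe sets were called. At an unadjusted p under 0.05 there were also 0 of 8, against 6.79% of all probe sets. Mean log2 signal was higher in knockout for 4 and lower for 4, with a median log2 difference of 0.05 beside 0.03 over all probe sets tested. The genotypes did not overlap, with either both knockout arrays above or both below the wild-type arrays, for 4 of the 8, against 37.4% of all probe sets. A difference of at least 1.5-fold without overlap was met by 1 of the 8, Nr1h3, which was lower in knockout. Of all probe sets 11.0% met this criterion in either direction and 4.12% were lower by it, and a count of 1 in 8 is too small to set against either share.

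**Figure D1:**
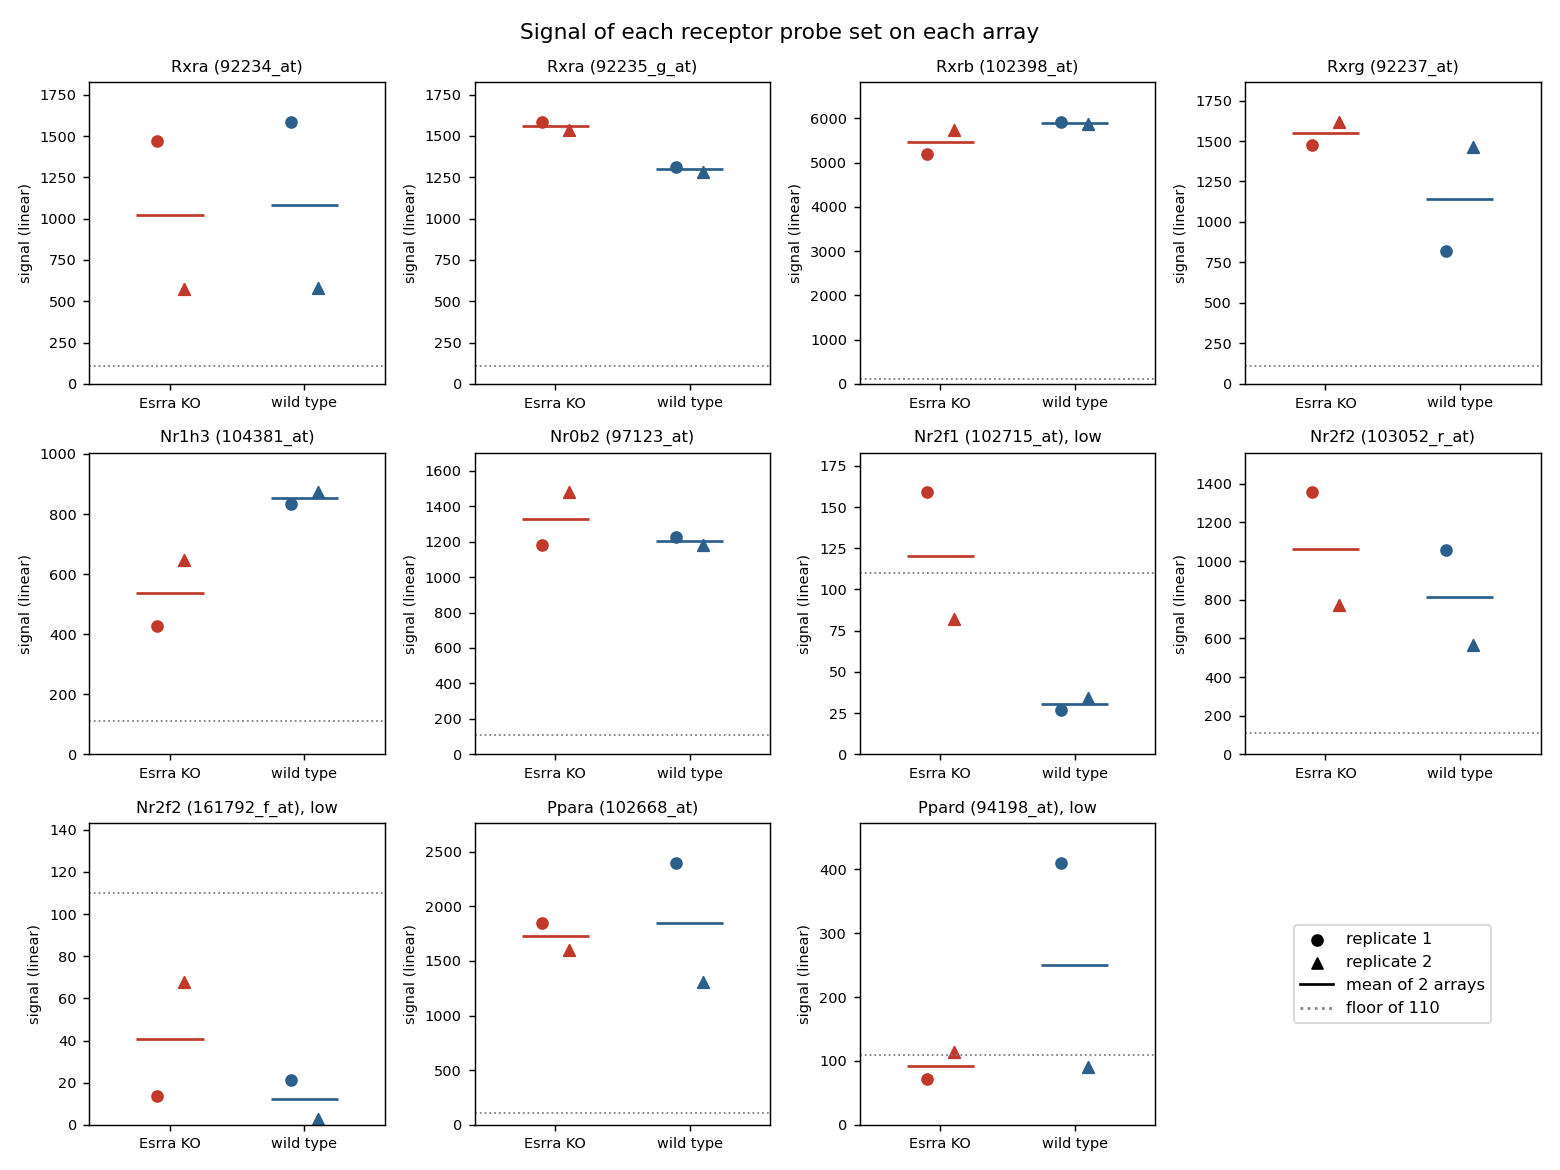
Deposited signal (linear, each panel with its own axis from 0) of the 11 member probe sets, with knockout on the left, wild type on the right, circles for replicate 1, triangles for replicate 2, bars for the mean of 2 arrays and a dotted line at the floor of 110. Nr1h3 shows both knockout arrays below both wild-type arrays, while Rxra 92234_at and Nr2f2 103052_r_at are split by replicate number in both genotypes.

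Nr1h3, which encodes the oxysterol receptor LXRα, had the largest difference among the member probe sets tested. Its signal was 427 and 646 in knockout, against 833 and 873 in wild type. Both knockout arrays were lower than both wild-type arrays, and the knockout arrays were 1.51-fold apart while the wild-type arrays were 1.05-fold apart. The means were 537 ± 155 in knockout and 853 ± 28.2 in wild type (SD, n = 2 each), a 1.62-fold lower knockout level on the log2 scale (log2 -0.70, SE 0.28, 95% interval -1.44 to 0.04). This did not pass the test over all probe sets (limma adjusted p = 0.744, unadjusted p = 0.0583), and 89.1% of the probe sets tested had a log2 difference no larger in size. The log2 difference was -0.40 without knockout replicate 1 and -0.998 without knockout replicate 2, the 2 values farthest apart when each array was left out.

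Several measures moved with genotype beside Nr1h3. The ratio of 5′ to 3′ signal of β-actin, a sign of RNA and labelling quality, was 0.694 and 0.813 in knockout, against 0.966 and 0.909 in wild type. The summed signal of 8 macrophage markers was 22844 and 20852 in knockout, against 19953 and 18926 in wild type, and 7 of the 8 had a higher mean in knockout. Of these, Cd14 and Csf1r were higher without overlap, while C1qa, C1qb, Cd68, Lyz2 and Mrc1 overlapped. The exception was Adgre1, the macrophage antigen F4/80, at 176 and 202 in knockout, against 397 and 500 in wild type. Adgre1 did not pass the filter on low signal. Of 6 adipocyte markers 4 were on the array, with sums of 4152 and 4761 in knockout and 3349 and 2900 in wild type. Of these 4, 3 had a higher mean in knockout, Adipoq, Lep and Retn, of which Retn did not pass the filter. Lep gave 1927 and 2409 in knockout, against 1480 and 1096 in wild type. Fabp4 had a lower mean and overlapped, at 1433 and 1588 in knockout, against 1616 and 1447 in wild type. None of these markers was at 0, and their part in the Nr1h3 difference was not tested. In whole ventricle, fewer cells of a type and less RNA per cell cannot be told apart.

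The RXR genes, which encode the shared partners, showed no difference that passed. Rxrb gave 5195 and 5736 in knockout, against 5927 and 5880 in wild type. Both knockout arrays were slightly lower, and the log2 difference was -0.11 (SE 0.20, 95% interval -0.64 to 0.41, limma adjusted p = 0.924). The interval allows a knockout level between 0.642-fold and 1.33-fold of wild type, which is the narrowest bound apart from that of the second Rxra probe set.

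Rxra, the main RXR of heart muscle, was read by a pair of probe sets designed on the same sequence, and they disagreed. The probe set 92234_at gave 1473 and 573 in knockout, against 1587 and 579 in wild type. Replicate 1 was 2.57-fold above replicate 2 in knockout and 2.74-fold above it in wild type, so the groups overlapped almost entirely and the log2 difference was -0.06 (SE 0.69, 95% interval -1.89 to 1.76). The probe set 92235_g_at gave 1586 and 1535 in knockout, against 1311 and 1283 in wild type. Here the replicates were within 1.03-fold in both genotypes, both knockout arrays were above both wild-type arrays, and the log2 difference was 0.27 (SE 0.19, 95% interval -0.25 to 0.78, limma adjusted p = 0.829). The replicate split of the first probe set was therefore absent from the second on the same 4 arrays.

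Rxrg, the RXR typical of striated muscle, had the highest log2 difference of the members tested. It gave 1476 and 1620 in knockout, against 819 and 1461 in wild type. Knockout replicate 1 and wild-type replicate 2 were close together, and the groups were separate mainly through wild-type replicate 1. The log2 difference was 0.50 (SE 0.34, 95% interval -0.40 to 1.40, limma adjusted p = 0.824), but leaving out wild-type replicate 1 gave 0.08 and leaving out wild-type replicate 2 gave 0.92.

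The PPAR genes were not separated by genotype. Ppara, the receptor that drives fatty acid oxidation genes in heart, gave 1852 and 1597 in knockout, against 2400 and 1304 in wild type. Both knockout values lay between the wild-type values, and the log2 difference was -0.04 (SE 0.36, 95% interval -0.99 to 0.91, limma adjusted p = 0.984). Ppard, whose product PPARδ also acts in muscle, gave 71.3 and 114 in knockout, against 410 and 90.9 in wild type. One array of each genotype lay below the floor of 110 and the mean over the 4 arrays was 172, so no fold is given. A difference in Ppard was not detectable at this signal.

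The COUP genes gave little signal or wide spread. Nr2f2, which encodes COUP-TFII, was read by a probe set, 103052_r_at, with 1356 and 773 in knockout, against 1058 and 567 in wild type. Replicate 1 was higher than replicate 2 in both genotypes, by 1.75-fold in knockout and by 1.87-fold in wild type, and the groups overlapped (log2 0.40, SE 0.45, 95% interval -0.78 to 1.58, limma adjusted p = 0.875). Its other probe set, 161792_f_at, was below the floor on all 4 arrays. Nr2f1, which encodes COUP-TFI, gave 159 and 82.1 in knockout, against 27.0 and 34.2 in wild type. Both knockout arrays were above both wild-type arrays, yet 3 of the 4 lay below the floor, and no fold is given. The summed signals of atrial, fibroblast, endothelial and smooth muscle markers also did not overlap between genotypes. The sum of 4 atrial markers was 17396 and 17050 in knockout, against 10715 and 8885 in wild type, with all 4 higher. The sum of 6 fibroblast markers was 84120 and 88243 in knockout, against 61434 and 71879 in wild type, with all 6 higher. The sum of 6 endothelial markers was 12625 and 12391 in knockout, against 16680 and 14274 in wild type, with 4 of 6 lower. Of these markers, Cdh5 and Tie1 were lower without overlap, while Kdr, Pecam1, Tek and Emcn overlapped. The sum of 4 smooth muscle markers was 22412 and 14298 in knockout, against 8035 and 6474 in wild type. That sum followed Acta2, smooth muscle α-actin, at 18753 and 10916 in knockout, against 4135 and 2909 in wild type. The other 3 of the 4, Myh11, Tagln and Cnn1, had a lower mean in knockout, but each overlapped between genotypes. Cnn1 also did not pass the filter. None of these markers was at 0, and their part in the COUP values was not tested.

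Nr0b2, the corepressor SHP, gave 1179 and 1479 in knockout, against 1228 and 1183 in wild type. Knockout replicate 2 was the highest array and the other 3 were close together, so the groups overlapped (log2 0.13, SE 0.22, 95% interval -0.46 to 0.72, limma adjusted p = 0.923).

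**Figure D2:**
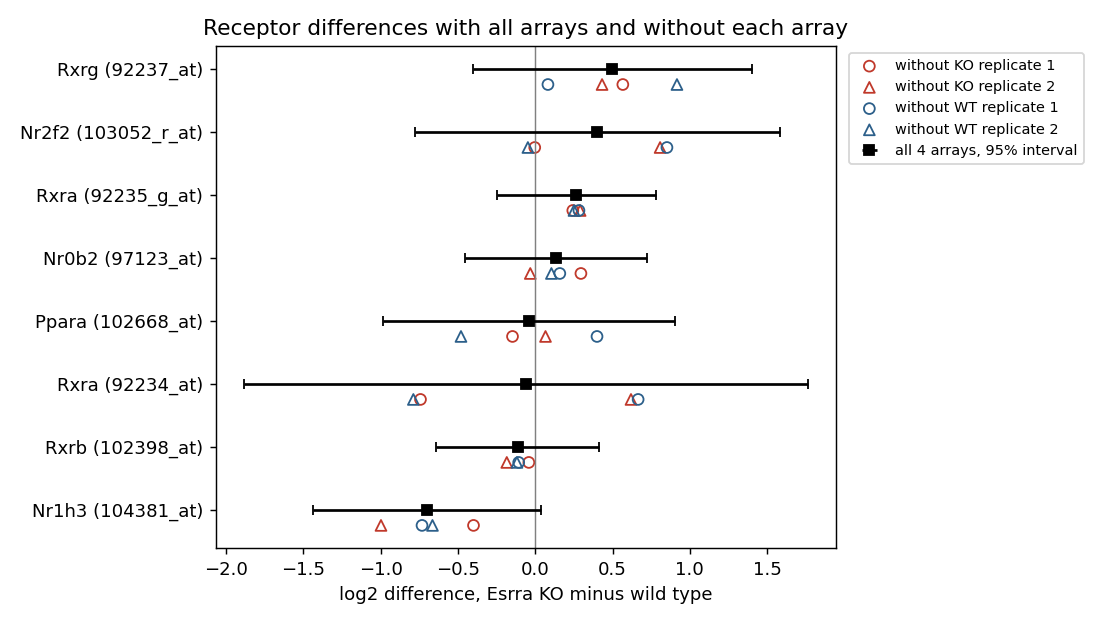
Log2 difference, knockout minus wild type, of the 8 member probe sets that passed the filter, with squares and bars for all 4 arrays and their 95% interval and open symbols for the difference with 1 array left out. Each interval includes 0, and Ppara, Nr0b2, Nr2f2 and Rxra 92234_at have values on both sides of 0. Whichever array is left out, Nr1h3 (-0.998 to -0.40) and Rxrb (-0.18 to -0.04) stay below 0. Likewise, Rxrg (0.08 to 0.92) and the other Rxra probe set (0.24 to 0.29) stay above 0.

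Replicates differed by more than genotypes for several members. Of the 8 probe sets that passed the filter, 6 had replicate 1 on the same side of replicate 2 in both genotypes, 4 higher and 2 lower. Over all 7453 probe sets the deviations of same-numbered arrays had a correlation of 0.01, which is across probe sets and not across independent samples. Nothing in the labels ties a numbered knockout array to the wild-type array of that number.

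**Figure D3:**
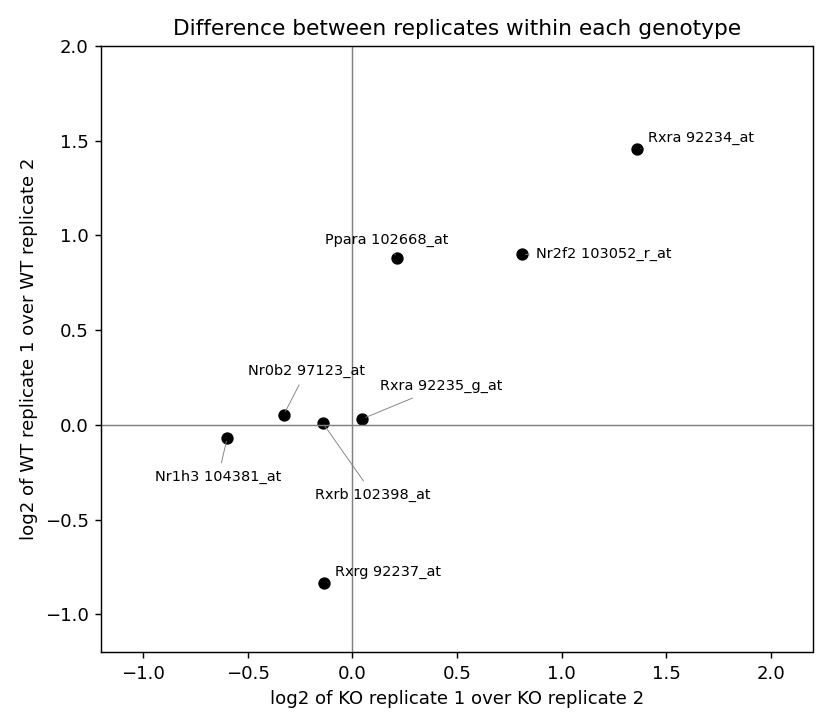
Log2 ratio of replicate 1 over replicate 2 in knockout (horizontal axis) and in wild type (vertical axis), 1 point per member probe set that passed the filter. Rxra 92234_at, Nr2f2 and Ppara lie to the upper right, with replicate 1 higher in both genotypes, and Rxra 92235_g_at lies near the origin.

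Genes known to respond to the receptors were read next from lists, taking for each gene its probe set of highest mean signal. Over all 5653 genes tested this way, 48.5% had a lower mean in knockout, 37.3% did not overlap between genotypes, 10.3% were at least 1.5-fold apart without overlap (6.28% higher and 4.07% lower), the median log2 difference was 0.01 and limma called 0 genes (368 at an unadjusted p under 0.05). On the probe sets used for them, none of the genes named from the lists passed; limma's adjusted p ran from 0.694 to 0.962, with Esrra apart at 0.179.

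LXR target genes were evenly divided. Of 24 listed genes 14 passed the filter, 7 higher and 7 lower in knockout, with a median log2 difference of 0.05. Without overlap, 5 were higher and 4 were lower. On the probe sets used, only Tnfaip2, an inflammation-induced gene, was at least 1.5-fold apart. It gave 935 and 1077 in knockout, against 2306 and 1528 in wild type (log2 -0.90, SE 0.28). Scd1, singled out after its values were seen, was at least 1.5-fold apart without overlap on its weaker probe set, higher in knockout. There the log2 difference was 0.81, against 0.15 on the stronger. Abca1, the cholesterol efflux transporter and a classical LXR target, gave 992 and 797 in knockout, against 656 and 797 in wild type (log2 0.30, SE 0.24), so replicate 2 had almost the same signal in both genotypes. Lpcat3, a phospholipid-remodelling enzyme induced by LXR, gave 790 and 683 in knockout, against 896 and 1147 in wild type (log2 -0.46, SE 0.24). Abca1 and Lpcat3 were chosen after their values were seen, and they lay on opposite sides of 0.

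PPAR target genes of fatty acid handling had a median log2 difference of -0.13 over the 27 of 41 that passed the filter, 18 of them lower in knockout, and the median was 0.01 without knockout replicate 1. Without overlap, 7 were lower and 3 higher. Plin4, a lipid droplet coat protein, gave 1846 and 1719 in knockout, against 2515 and 2933 in wild type (log2 -0.61, SE 0.21). Cyp4a14, a fatty acid hydroxylase induced by PPARα in liver, gave 390 and 500 in knockout, against 990 and 585 in wild type (log2 -0.79, SE 0.34). Angptl4, a secreted inhibitor of lipoprotein lipase, gave 719 and 1251 in knockout, against 618 and 674 in wild type (log2 0.56, SE 0.33), while its 2 weaker probe sets had log2 differences of 1.06 and -0.32. Pdk4, the kinase that restrains pyruvate oxidation, was chosen after its values were seen and gave 32119 and 43337 in knockout, against 29641 and 21918 in wild type (log2 0.55, SE 0.28). The targets at least 1.5-fold apart therefore lay on both sides, 2 lower and 1 higher. The higher one, Angptl4, met this criterion on the group means, while its log2 difference corresponds to 1.47-fold. The cardiomyocyte markers were also lower in sum in knockout, as given above, and their part in this list's median and in that of the coactivators was not tested.

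Coactivators and corepressors that nuclear receptors share had a median log2 difference of -0.13 over 17 of 26 genes, 12 of them lower in knockout, with 6 lower and 5 higher without overlap. Their median was 0.06 without knockout replicate 2. On the probe sets used, Ppargc1a, the coactivator PGC-1α that works with PPARα and ERRα, was the 1 gene at least 1.5-fold apart without overlap. It gave 793 and 589 in knockout, against 368 and 435 in wild type (log2 0.77, SE 0.25). Tbl1x, singled out after its values were seen, also met this criterion on its weaker probe set, higher in knockout. There the log2 difference was 1.08, against 0.52 on the stronger. Retinoid-binding and metabolising genes, which handle the precursors of RXR ligands, had a median of 0.04 over 6 of 23 genes, with none at least 1.5-fold apart on the probe set of highest mean. The 2 with the lowest unadjusted p were Rarres2, a retinoid-induced chemoattractant, at 3025 and 2718 in knockout, against 2083 and 2426 in wild type (log2 0.35, SE 0.21), and Adh1, an alcohol dehydrogenase that oxidises retinol. Adh1 gave 2058 and 1767 in knockout, against 2048 and 3069 in wild type (log2 -0.39, SE 0.28). Aldh1a1, a retinaldehyde dehydrogenase singled out after its values were seen, differed between its probe sets, with a log2 difference of 1.34 on the weaker and -0.09 on the stronger. Rdh11, a retinol dehydrogenase also singled out afterwards, had 1.74 on its weaker probe set, at 1379 and 1541 in knockout, against 592 and 324 in wild type, and 0.32 on the stronger.

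Vascular and cardiac genes linked to COUP-TFII, Notch pathway genes among them, had a median log2 difference of -0.00457. The list was not divided by the direction of any link, so its median is a description only. Of the 13 that passed the filter, 5 were at least 1.5-fold apart without overlap, 3 higher and 2 lower in knockout, against 10.3% of all genes tested. The list was chosen with earlier results of these data known, so this count too is a description only. The higher ones, Myl4, Myl7 and Nppa, are genes of atrial muscle and also 3 of the 4 atrial markers above. Myl4, the atrial essential light chain, gave 2201 and 3663 in knockout, against 1052 and 1494 in wild type (log2 1.18, SE 0.35), and 0.58 on its other probe set. Myl7, the atrial regulatory light chain, gave 2380 and 3373 in knockout, against 1572 and 1707 in wild type (log2 0.79, SE 0.26). Nppa, atrial natriuretic peptide, gave 12669 and 9603 in knockout, against 7980 and 5605 in wild type (log2 0.72, SE 0.29). The lower ones, Nrp1 and Notch1, act in blood vessels among other places. Nrp1, a co-receptor for vascular growth factors, gave 7016 and 7331 in knockout, against 11782 and 9870 in wild type (log2 -0.59, SE 0.21), while its weaker probe set overlapped between genotypes at -0.33. Notch1, a receptor of cell-contact signalling, gave 1097 and 377 in knockout, against 1822 and 1377 in wild type (log2 -1.30, SE 0.56), while its weaker probe set had 0.04. Knockout replicate 2 was the lowest array for Notch1.

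Other nuclear receptors were tested for 11 of 38 listed genes, 8 of them higher in knockout, with a median log2 difference of 0.22 (0.08 without wild-type replicate 2). On the probe sets used, Esrra itself was the 1 gene at least 1.5-fold apart without overlap. Nr1i3, singled out after its values were seen, met this criterion on a weaker probe set, higher in knockout. There the log2 difference was 0.66, against 0.22 on the probe set used. The weaker Esrra probe set was the 1 probe set that limma called in the whole comparison, with both knockout arrays below the floor.

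**Figure D4:**
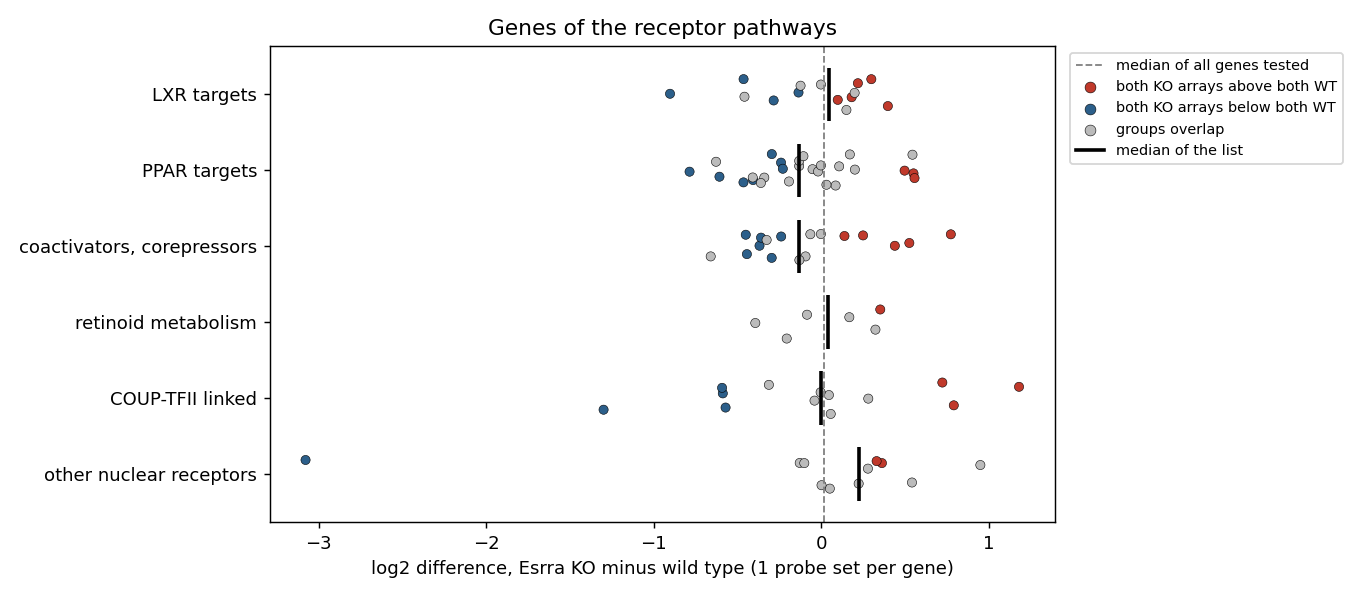
Log2 difference, knockout minus wild type, of the genes of 6 lists, 1 point per gene, coloured by whether both knockout arrays lay above or below both wild-type arrays, with a bar at each list's median and a dashed line at the median of all genes tested (0.01). LXR and PPAR targets lie on both sides of 0, the COUP-TFII list spreads between -1.30 and 1.18, and the isolated point at -3.08 is Esrra.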

How the data were processed

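The authors deposited an intensity per probe set and array. Per the labels' protocols, cDNA made from total RNA with a T7-linked oligo-dT primer was the template for biotin-labelled cRNA. The software, the background correction and the scaling are not given in the sources used here; each array had a mean of 1501 once the highest and lowest 2% were trimmed. Symbols came from the platform annotation, updated by gene ID through RefSeq (GRCm38.p6): of the 10855 probe sets with 1 symbol, 10839 matched, 396 had several symbols and 1237 had none.

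Without the 66 control probe sets, 7453 passed the filter. The unpaired comparison of the genotypes used limma 3.58.1 (lmFit, eBayes; R 4.3.3) and a threshold of 0.05; the step was tested on simulated data. Alternatives changed the floor (5th or 40th percentile), the filter (none or 60th), the scaling, the prior, the replicate block, probe set suffixes and the arrays used.

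Members and lists were chosen with earlier results of these data known. Named were all members; of each list, genes at least 1.5-fold apart without overlap (group means, floored) or else the 2 of lowest unadjusted p; and Esrra. Lpl is in both the LXR and the PPAR list. With 4 arrays, no gene was named for a pattern like a member's.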

Additional observations from a re-analysis of the deposited data

How the results depend on the processing

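None of the 8 member probe sets tested passed under any of the 13 alternatives (lowest adjusted p 0.399, for the second Rxra probe set with no filter). The log2 difference of Nr1h3 ran from -0.998 to -0.40 over the 12 alternatives that kept it. Leaving out each array in turn gave -0.79 to 0.67 for Rxra 92234_at, -0.0478 to 0.85 for Nr2f2, -0.48 to 0.40 for Ppara and -0.0322 to 0.30 for Nr0b2, so each of these changed sign, and no other alternative turned the sign of a member. The count of members at least 1.5-fold apart without overlap was 0 with the filter at the 60th percentile, which left Nr1h3 out, and 1 to 3 without each array, where fewer arrays must be separate. The number of probe sets called over the whole table was 1. It was 0 with the floor at the 5th or 40th percentile, with no filter, with the replicate block, when suffixes that mark cross-hybridization were dropped, and without each array in turn (0 to 0), and 2 with the filter at the 60th percentile or with the trend and robust prior; the cause was not tested. With the replicate block Nr1h3 had an adjusted p of 0.754. Same-numbered arrays share only a number, and no paired call was gained. Of the probe sets at least 1.5-fold apart without overlap, 62.4% were higher in knockout as deposited, 48.5% after quantile normalization and 38% after median scaling. The LXR list's median was -0.08 after median scaling and 0.12 after quantile normalization, and over all 14 alternatives it ran from -0.0764 to 0.12. The retinoid list's was -0.08 and 0.03, and ran from -0.28 (without knockout replicate 1) to 0.26 (mean of a gene's probe sets). Each of these 2 medians took the opposite sign in 5 alternatives. For the retinoid list, 1 of the 5 was the fit with no filter, where the median was 0 within rounding. The median of the PPAR list was 0.01 without knockout replicate 1, that of the coactivators 0.06 without knockout replicate 2, and that of the other nuclear receptors stayed above 0 under its 14 alternatives (7.42e-04 to 0.34). Without detection calls, signal over background could not be judged, and the 3 low member probe sets give no usable difference.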
